A study of Mus musculus with 22 samples.

Results

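A set of 10 integrin subunit genes was followed in regenerating mouse muscle: Itgal, Itgam and Itgb2 of leukocytes, Itga7 and Itgb1 of muscle fibres, and Itga5, Itga6, Itgav, Itgb3 and Itgb5 of vessel wall, platelet and stromal cells. They were chosen by name, and every probe whose platform symbol is one of these genes was taken. This gave 18 probes of 10 genes, out of 38563 probes and 18524 genes on the array. Gastrocnemius muscle, a calf muscle, was profiled in 22 C57BL/6N male mice aged 8 to 12 weeks, all labelled non-diabetic, after the femoral artery of 1 hindlimb had been removed. On day 5 after surgery, 11 mice received ANTI-210, a locked nucleic acid (LNA) oligonucleotide complementary to miR-210, and 11 mice received SCR, a scrambled LNA oligonucleotide, each given intraperitoneally at 12 mg/kg. Ischemic muscles were taken on day 7, and 200 ng of RNA from each mouse was hybridised to 1 array, so that each value belongs to 1 mouse. The oligonucleotides were systemic, and therefore not restricted to any cell type of the muscle. The comparison asks what changed in the ischemic muscle when miR-210, a microRNA induced by low oxygen, was blocked.

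Integrins are receptors made of 1 alpha and 1 beta subunit that bind matrix proteins or counter-receptors outside the cell and, through talin and kindlin, the actin cytoskeleton inside it. Itgb2 pairs with Itgal to form LFA-1, which binds ICAMs, and with Itgam to form Mac-1, which macrophages and neutrophils use for adhesion and complement uptake. Itga7 pairs with Itgb1 in the laminin receptor of muscle fibres, and Itgb1 also serves as the partner of many other alpha subunits, among them Itga5 (the fibronectin receptor) and Itga6 (a laminin receptor of endothelium). Itgav pairs with Itgb3 or Itgb5 in receptors for vitronectin and other RGD-containing ligands that are known from angiogenic vessels and macrophages, and Itgb3 is also the platelet fibrinogen receptor subunit.

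The sequence of the blocked microRNA is shown because it is what the treatment targets, with its seed (bases 2 to 8) in capitals. It lies at chr7:141221407-141221428 on the minus strand (GRCm38.p6, RefSeq).
mmu-miR-210-3p: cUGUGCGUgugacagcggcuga
RefSeq promoter sequences (GRCm38.p6, 300 bases, 250 before and 50 after the gene start) were matched for 5 of the 10 genes, Itgam, Itgb1, Itga5, Itgav and Itgb5. Itgal, Itgb2, Itga7, Itga6 and Itgb3 had no entry. GAGGAA on either strand, the core bound by PU.1 and other ETS factors of myeloid and endothelial cells, was present in 28.3% of 32851 promoters. It occurred 3 times in the Itgam promoter, 1 time in that of Itga5, 2 times in that of Itgav and 1 time in that of Itgb1, and no match was found in that of Itgb5. The promoters of Itgam, a leukocyte subunit, and of Itga5 and Itgav, the vascular subunits whose level followed the leukocyte markers most closely, are printed 5′ to 3′ along the gene with these letters in capitals. They lie at chr7:128062390-128062689 (plus strand), chr15:103366742-103367041 (minus strand) and chr2:83724147-83724446 (plus strand).
Itgam: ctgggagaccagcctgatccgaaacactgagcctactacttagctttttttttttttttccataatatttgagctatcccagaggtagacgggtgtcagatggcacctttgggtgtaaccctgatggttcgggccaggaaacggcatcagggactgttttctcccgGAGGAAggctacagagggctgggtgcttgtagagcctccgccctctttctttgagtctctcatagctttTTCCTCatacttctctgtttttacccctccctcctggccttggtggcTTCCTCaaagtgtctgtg
Itga5: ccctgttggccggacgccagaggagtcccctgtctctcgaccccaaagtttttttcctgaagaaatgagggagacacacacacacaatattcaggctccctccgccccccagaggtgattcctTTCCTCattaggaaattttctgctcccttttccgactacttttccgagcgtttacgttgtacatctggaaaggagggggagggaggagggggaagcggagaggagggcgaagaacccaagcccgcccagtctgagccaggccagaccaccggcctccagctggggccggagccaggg
Itgav: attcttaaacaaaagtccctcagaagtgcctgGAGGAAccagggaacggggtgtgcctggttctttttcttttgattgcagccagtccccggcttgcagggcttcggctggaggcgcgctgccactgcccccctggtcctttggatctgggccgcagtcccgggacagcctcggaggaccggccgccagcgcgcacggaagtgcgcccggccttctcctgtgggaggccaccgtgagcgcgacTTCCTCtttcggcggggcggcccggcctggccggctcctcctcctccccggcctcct
The matches of Itgam began 84 and 15 bases before the start and at base 33 from it. The E-box CAGCTG read by myogenic factors (either strand, in 16.3% of promoters) occurred 1 time each in Itga5 and Itgb5, and it overlapped no GAGGAA match. The hypoxia-response cores ACGTG and GCGTG (either strand, in 43.8%) were found 1 time in Itgb5 and not in the other promoters, and the AP-1 sites TGACTCA and TGAGTCA (in 5.2%) were in none of the 5 windows. These are matches of letters, and binding was not measured.

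Values are log2 probe intensities as deposited, and a probe with a mean under 6 is called near the floor, as were 62.6% of all probes. Array values ran from 4.35 to 15.4, and the correlation between arrays was 0.947 to 0.997. Muscle markers were bright (Ckm averaged 14.95 ± 0.20 in ANTI-210 and 14.98 ± 0.12 in SCR muscles, SD, n = 11 each), and leukocyte markers were measured for 17 of 18 listed genes, 1 of them near the floor (Ptprc). Replicate numbers 1 to 3 of both groups lay apart from numbers 4 to 11 on the second principal component (7.31% of the variance). The labels name no batch, so the members were also compared within these 3 + 3 and 8 + 8 mice. In whole muscle, fewer cells of a type and less RNA per cell cannot be told apart. Of several probes for a gene, the brightest by its mean over the 22 arrays represents it.

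No integrin gene passed the test of ANTI-210 against SCR. By limma across all probes, 0 of 10 genes had an unadjusted p below 0.05, against 3.47% of all genes (269 higher and 373 lower), and all adjusted p-values were 1. Of the 18 probes, 1 passed the unadjusted threshold, the dimmer Itga7 probe, against 3.41% of all probes. The 10 differences ran from -0.05 to 0.14 on the log2 scale, and the median over all genes was -0.0036.

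The leukocyte subunits were all near the floor, where differences can be compressed. Itgal ranged from 5.26 to 6.20 (median 5.81) in ANTI-210 and from 5.25 to 6.18 (median 5.69) in SCR muscles. Itgam ranged from 4.61 to 5.26 (median 4.77) in ANTI-210 and from 4.53 to 5.43 (median 4.80) in SCR muscles. Itgb2 ranged from 4.97 to 6.17 (median 5.37) in ANTI-210 and from 4.77 to 6.44 (median 5.31) in SCR muscles. The groups overlapped over nearly their whole range for each of the 3 genes, and the brightest mice for Itgam and Itgb2 were SCR 6 and 7 and ANTI-210 11. The difference (ANTI-210 minus SCR) was -0.04 for Itgal (95% interval -0.29 to 0.20, limma unadjusted p = 0.731), -0.01 for Itgam (-0.22 to 0.21, p = 0.931) and 0.06 for Itgb2 (-0.36 to 0.47, p = 0.782). Beside these, the 17 measured leukocyte markers all had positive differences, with a mean of 0.32, and 0 of them passed the unadjusted threshold. Their mean difference was 1.08 in replicates 1 to 3 and 0.04 in replicates 4 to 11. Their mean relative level ran from -0.83 to 1.28 in ANTI-210 and from -1.46 to 1.40 in SCR mice, and its part in the subunit values was not tested.

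**Figure D1:**
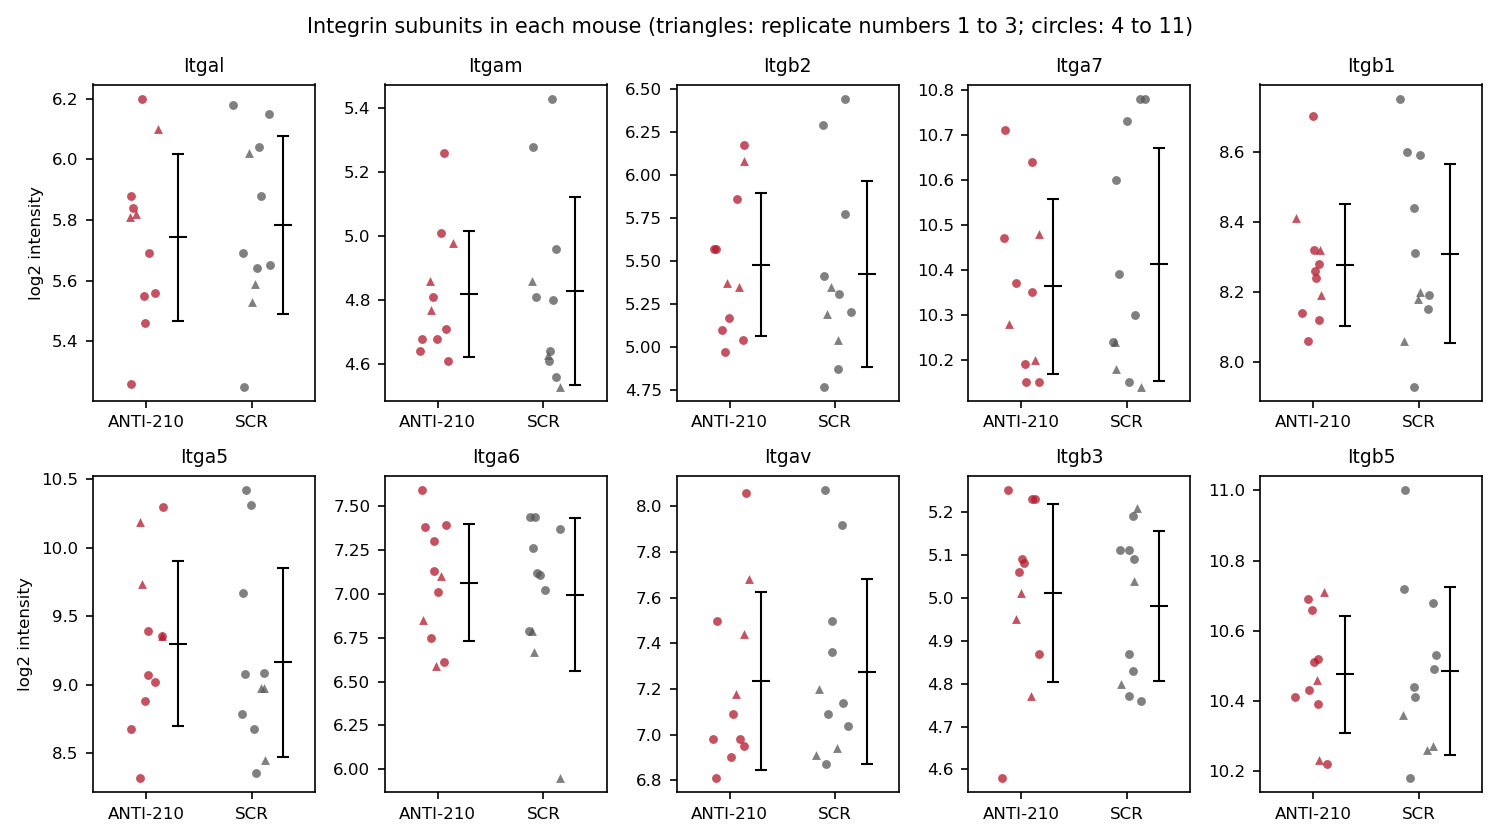
Log2 intensity (y axis) of the probe standing for each integrin gene in every mouse, ANTI-210 left and SCR right. Triangles are replicate numbers 1 to 3, circles 4 to 11, and the black bars are mean ± SD (n = 11 each). The y axes differ between panels. The 2 groups overlap in each panel, and the SCR mouse at 5.95 lies below all others for Itga6.

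The muscle subunits lay above the floor, and their SD over mice, 0.23 for Itga7 and 0.21 for Itgb1, was above that of 59.7% and 56.9% of all genes. Itga7, the alpha subunit of the fibre's laminin receptor, ranged from 10.15 to 10.71 (median 10.35) in ANTI-210 and from 10.14 to 10.78 (median 10.30) in SCR muscles. Its partner Itgb1 ranged from 8.06 to 8.70 (median 8.26) in ANTI-210 and from 7.93 to 8.75 (median 8.20) in SCR muscles. For both genes, SCR 6, 7 and 8 and ANTI-210 11 were among the highest mice. The differences were -0.05 for Itga7 (-0.25 to 0.15, limma unadjusted p = 0.611) and -0.03 for Itgb1 (-0.22 to 0.16, p = 0.721).

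The dimmer Itga7 probe gave another value than the brighter one. It ranged from 7.64 to 8.32 (median 8.11) in ANTI-210 and from 7.96 to 8.60 (median 8.23) in SCR muscles, so that the groups overlapped but the lowest mice were treated ones. The means were 8.03 ± 0.23 in ANTI-210 and 8.24 ± 0.23 in SCR muscles (SD, n = 11 each), a difference of -0.22 (-0.41 to -0.02, limma unadjusted p = 0.0315, adjusted p = 1). The difference was 0.07 in replicates 1 to 3 and -0.32 in replicates 4 to 11 (exact permutation p = 0.0207, two-sided). It lost its unadjusted call with array quality weights, at -0.16 (p = 0.0881), and without any 1 of 6 mice (ANTI-210 5, 6 or 10 and SCR 7, 8 or 10), with values of -0.24 to -0.18 over all mice left out in turn. The 2 Itga7 probes correlated at r = 0.66 over the 22 mice. The log2 value of the dimmer probe minus that of the brighter one on the same array, a quantity chosen after the values were seen, averaged -2.34 ± 0.20 in ANTI-210 and -2.17 ± 0.16 in SCR muscles (SD, n = 11 each, difference -0.17, permutation p = 0.044), with a difference of -0.06 in replicates 1 to 3 and -0.21 in replicates 4 to 11. Which transcripts each probe detects was not examined.

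Among the vascular subunits, Itga5 varied most over mice. It ranged from 8.32 to 10.30 (median 9.36) in ANTI-210 and from 8.36 to 10.42 (median 8.98) in SCR muscles. Both groups spanned almost the same interval, with SCR 7 and 6 and ANTI-210 11 and 3 at the top and ANTI-210 4 and SCR 11 at the bottom. The difference was 0.14 (-0.42 to 0.69, limma unadjusted p = 0.615), and the second Itga5 probe gave 0.11. It was 0.036 without ANTI-210 11 and 0.26 without SCR 7, and -0.010 once the first principal component entered the fit. Itgav ranged from 6.81 to 8.06 (median 7.09) in ANTI-210 and from 6.87 to 8.07 (median 7.14) in SCR muscles, a difference of -0.04 (-0.38 to 0.30, p = 0.796). Its next brightest probe gave 0.04, and the other probes, both near the floor, gave -0.02 each. Thus both probes of Itga5 and all 4 of Itgav had intervals that include 0.

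Itga6, the laminin receptor subunit of endothelium, ranged from 6.59 to 7.59 (median 7.10) in ANTI-210 and from 5.95 to 7.44 (median 7.11) in SCR muscles. The groups overlapped, and the lowest value was that of SCR 2. The difference was 0.07 (-0.27 to 0.40, limma unadjusted p = 0.680), with 0.02 and 0.01 for its other probes. Itgb5 ranged from 10.22 to 10.71 (median 10.46) in ANTI-210 and from 10.18 to 11.00 (median 10.44) in SCR muscles, a difference of -0.01 (-0.19 to 0.17, p = 0.908). Itgb3 was near the floor, at 4.58 to 5.25 (median 5.06) in ANTI-210 and 4.76 to 5.21 (median 5.04) in SCR muscles, a difference of 0.03 (-0.14 to 0.20, p = 0.703). Beside these vascular subunits, 6 of 16 endothelial markers passed the unadjusted threshold and 0 after adjustment, against 3.47% of all genes unadjusted. All 6 were higher in ANTI-210 muscles, among them Emcn at 0.21 (limma unadjusted p = 0.00526) and Cdh5, VE-cadherin, at 0.25 (p = 0.00956). The mean difference of the 16 markers was 0.14, with 0.31 in replicates 1 to 3 and 0.08 in replicates 4 to 11, and its part in the subunit values was not tested.

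Averaged by class, the difference was 0.0018 for the leukocyte, -0.04 for the muscle and 0.04 for the vascular subunits. Leaving out 1 mouse moved them: the muscle mean ran from -0.079 (without ANTI-210 11) to -0.0030 (without SCR 6), the vascular mean from 0.0031 (without SCR 1) to 0.087 (without SCR 7), and the leukocyte mean from -0.051 (without ANTI-210 11) to 0.048 (without SCR 6). Whether the classes differ was not tested.

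For the probe standing for each gene, the difference had opposite signs in the 2 replicate sets for each of the 10 members. The share of all genes with opposite signs was not counted. The overall difference is a weighted mean of the 2 set differences, so opposite signs are likely where it is small. A dimmer Itgav probe, near the floor, was negative in both sets (-0.07 and -0.005). In replicates 1 to 3, 9 of 10 genes had a positive difference and Itgb3 a negative one (median 0.20), whereas 47.0% of all genes were positive (median -0.0067). In replicates 4 to 11, 9 of 10 genes had a negative difference and only Itgb3 a positive one (median -0.10), whereas 48.0% of all genes were positive (median -0.0025). By class, the mean difference was 0.27 and -0.10 in the 2 sets for leukocyte subunits, 0.15 and -0.11 for muscle subunits, and 0.36 and -0.09 for vascular subunits. By the brightest probe, none of the 10 genes passed an exact test within a set. The smallest exact permutation p was 0.1 in replicates 1 to 3, the lowest that 3 against 3 mice allow, and 0.321 in replicates 4 to 11.

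Itga5 had the widest split. In replicates 1 to 3 it measured 9.36, 9.74 and 10.19 in ANTI-210 and 8.45, 8.98 and 8.98 in SCR muscles. These 3 treated mice were all above the 3 control mice, a difference of 0.96 (exact permutation p = 0.1). In replicates 4 to 11 the means were 9.13 ± 0.59 in ANTI-210 and 9.30 ± 0.76 in SCR muscles (SD, n = 8 each, difference -0.17, exact permutation p = 0.618), and the groups overlapped. The interaction of treatment with replicate set was 1.13 for Itga5 (limma unadjusted p = 0.0626, adjusted p = 0.448) and 0.63 for Itgav (unadjusted p = 0.0928). Once the first principal component (63.6% of the variance) entered the fit it was 0.12 for Itga5 and 0.015 for Itgav, and its sign turned for Itgb2 (-0.29), Itgam (-0.075), Itga7 (-0.076) and Itgb1 (-0.059). None of the 10 genes had an interaction p below 0.05, against 11.0% of all probes unadjusted and 0% after adjustment. The opposite signs in the 2 sets are therefore a description. Leukocyte markers had a larger mean difference in replicates 1 to 3 (1.08) than in replicates 4 to 11 (0.04), positive in both, and mature fibre markers had mean differences of -0.22 and 0.08. Their part in the split was not tested.

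**Figure D2:**
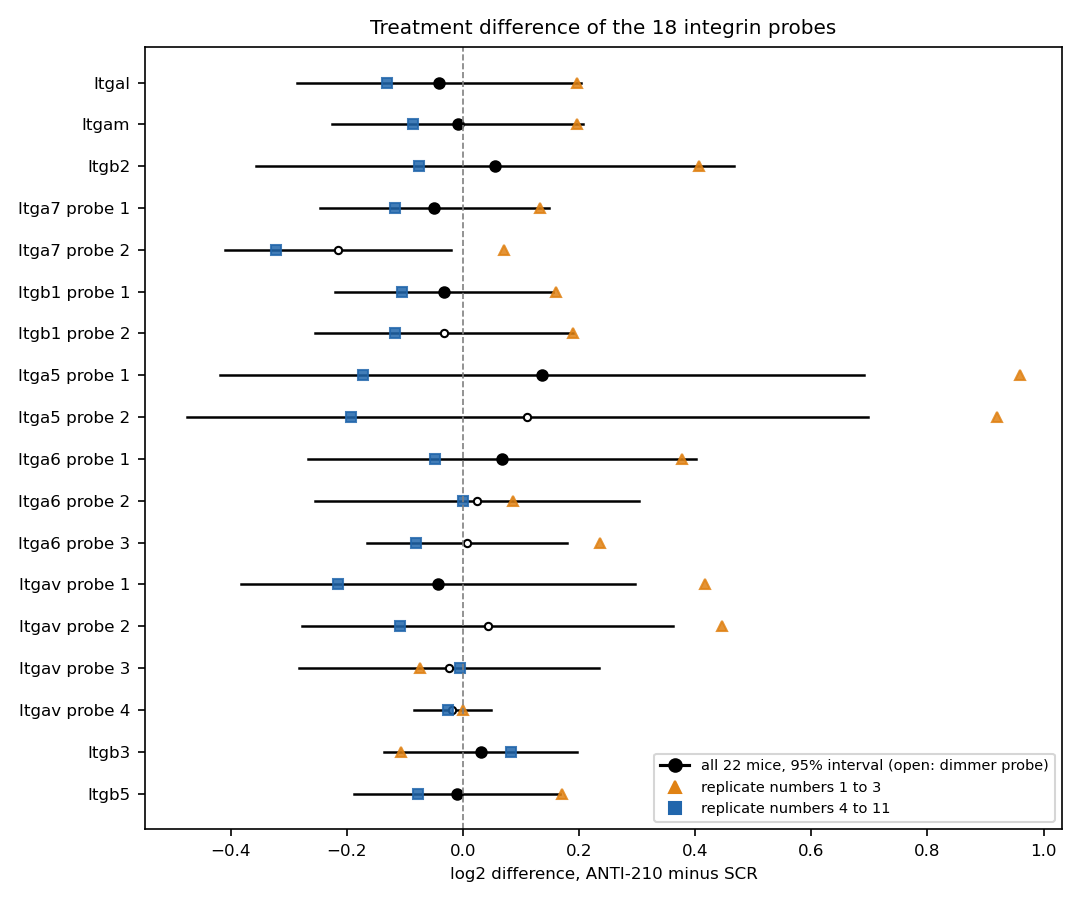
Log2 difference, ANTI-210 minus SCR (x axis), of the 18 integrin probes. Black points with lines are all 22 mice with the 95% interval (open points are dimmer probes of the same gene), orange triangles are replicate numbers 1 to 3, and blue squares are 4 to 11. Only the interval of the dimmer Itga7 probe leaves out 0, and the triangles of both Itga5 probes lie near 0.9.

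The spread of the members over mice was wider than their treatment differences. The SD over all 22 mice was 0.64 for Itga5, above 94.8% of all genes, 0.47 for Itgb2 (above 88.3%), 0.39 for Itgav (82.7%) and 0.38 for Itga6 (82.3%). Itgb5 and Itgb3, at 0.20 and 0.19, were close to the median gene (0.186). The same mice recurred at the top. ANTI-210 3 and 11 and SCR 6, 7 and 8 had the 5 highest leukocyte marker levels and the 5 lowest mature fibre marker levels, and they included the 4 highest mice for Itga5, for Itgb2 and for Itgav, where SCR 8 shared the next place with ANTI-210 9.

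Each member was therefore compared over mice with the mean relative level of leukocyte, mature fibre and endothelial markers (30 relations, Benjamini-Hochberg adjusted, 100000 permutations, 1e-05 being the smallest p they can give). With leukocyte markers 7 of 10 members passed, all with positive r, and with fibre markers the same 7 passed, all with negative r. They were Itgam, Itgb2, Itga7, Itgb1, Itga5, Itgav and Itgb5. With endothelial markers 0 of 10 passed over all mice. Within the replicate sets, r with endothelial markers was 0.53 in replicates 1 to 3 and -0.77 in replicates 4 to 11 for Itgam. It was 0.59 and -0.60 for Itga5, 0.50 and -0.69 for Itgav, and 0.05 and -0.74 for Itgb5. Itgal, Itgb2, Itga7 and Itgb1 were also positive in the first set and negative in the second. Itga6 was positive in both (0.59 and 0.33), and Itgb3 turned the other way (-0.06 and 0.45). These within-set values were not tested. The leukocyte and fibre marker levels themselves correlated at r = -0.89, so that both relations describe nearly 1 axis. Such relations were common, as the median absolute r with leukocyte markers was 0.743 over the 8828 genes above the floor. Of these genes, 18.9% had an absolute r over 0.9. The share of all genes that would pass was not counted, so 7 of 10 is not shown to be particular to integrins.

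Itgb2, the common beta subunit of leukocyte integrins, followed leukocyte markers with r = 0.93 (rho = 0.88, permutation p = 1e-05 each, adjusted p = 3.75e-05 for r). It was 0.92 within ANTI-210 mice, 0.95 within SCR mice, 0.89 in replicates 1 to 3 and 0.96 in replicates 4 to 11. Itgam, the Mac-1 alpha subunit, gave r = 0.83 (rho = 0.81, p = 1e-05 each), although its probe was near the floor. Itgal, the LFA-1 alpha subunit, did not pass, with r = 0.31 (rho = 0.29, permutation p = 0.165 and 0.198). Its r was 0.69 within ANTI-210 mice and 0.05 within SCR mice, and neither this difference nor that between the subunits was tested. The Itgal probe was near the floor.

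Itga5 and Itgav, grouped as vascular, followed the same axis as Itgb2. Itga5 gave r = 0.92 with leukocyte markers (rho = 0.84, permutation p = 1e-05 and 2e-05) and -0.94 with fibre markers (rho = -0.95, p = 1e-05 each). Itgav gave r = 0.85 (rho = 0.75, p = 1e-05 and 9e-05) and -0.95 (rho = -0.87, p = 1e-05 each). Without the 2 mice farthest from the median marker level, the leukocyte relations were 0.89 for Itga5 and 0.81 for Itgav. In replicates 4 to 11 they were 0.92 and 0.86, and within ANTI-210 mice 0.87 and 0.88. The second probes of Itga5 and Itgav gave 0.91 and 0.89 with leukocyte markers, whereas the near-floor Itgav probes gave -0.07 and -0.10.

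By their brightest probes, the muscle subunits ran with leukocyte markers and against mature fibre markers as well. Itga7 gave r = 0.72 with leukocyte markers (rho = 0.61, permutation p = 0.00021 and 0.00321) and -0.82 with fibre markers (rho = -0.72, p = 2e-05 and 0.00028). Itgb1 gave r = 0.78 (rho = 0.65, p = 2e-05 and 0.00124) and -0.88 (rho = -0.82, p = 1e-05 and 2e-05). So the brighter probe of Itga7, known as a fibre integrin, was higher in the muscles with a lower level of contractile genes. The relation with leukocyte markers is not particular to Itga7, as its r was below the median absolute r of 0.743 for genes above the floor. The corresponding median for fibre markers was not computed, so whether the fibre relation is particular to Itga7 was not tested. Within replicates 4 to 11, r with fibre markers was -0.87 for Itga7 and -0.91 for Itgb1. The dimmer probes of Itga7 and Itgb1 gave weaker values of -0.47 and -0.48.

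Of the other vascular subunits, by the brightest probe, Itgb5 passed with both lists at lower r, and Itga6 and Itgb3 passed with neither. Itgb5 gave r = 0.58 with leukocyte markers (rho = 0.51, permutation p = 0.00394 and 0.0174), which became 0.40 without the 2 farthest mice. Its r of -0.57 with fibre markers (rho = -0.30, p = 0.00524 and 0.18) became -0.28 without them and rests on those mice. Itga6 gave r = -0.22 with leukocyte markers (rho = -0.43, p = 0.337 and 0.0497) and its highest r, 0.45, with endothelial markers (rho = 0.41, p = 0.0346 and 0.059, adjusted p = 0.0692 for r). Its second probe, above the floor, gave -0.57 with leukocyte and 0.40 with fibre markers. Its near-floor probe gave -0.005 and 0.007, and these values were not tested. With the mean of its 3 probes, an alternative that was not planned, r with endothelial markers was 0.60 (permutation p = 0.00329, unadjusted). Singly, the probes gave 0.45, 0.45 and 0.32 with these markers, the last being the near-floor one. Itgb3 gave r = 0.43 with fibre markers (rho = 0.40, p = 0.0446 and 0.0635, adjusted p = 0.0836 for r), which became 0.06 without the 2 farthest mice.

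**Figure D3:**
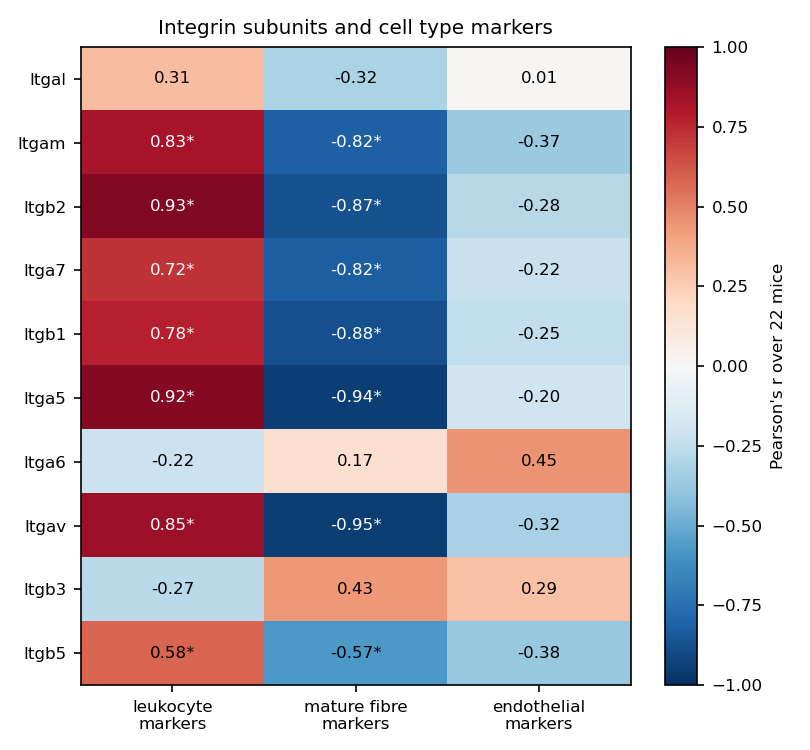
Pearson's r over 22 mice (colour and number) between each integrin gene (rows) and the mean level of 3 cell type marker lists (columns). Asterisks mark a permutation p below 0.05 after Benjamini-Hochberg adjustment over 30 relations. Itgb2 and Itga5 are highest with leukocyte markers (0.93 and 0.92), and only Itga6 and Itgb3 are negative there.

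**Figure D4:**
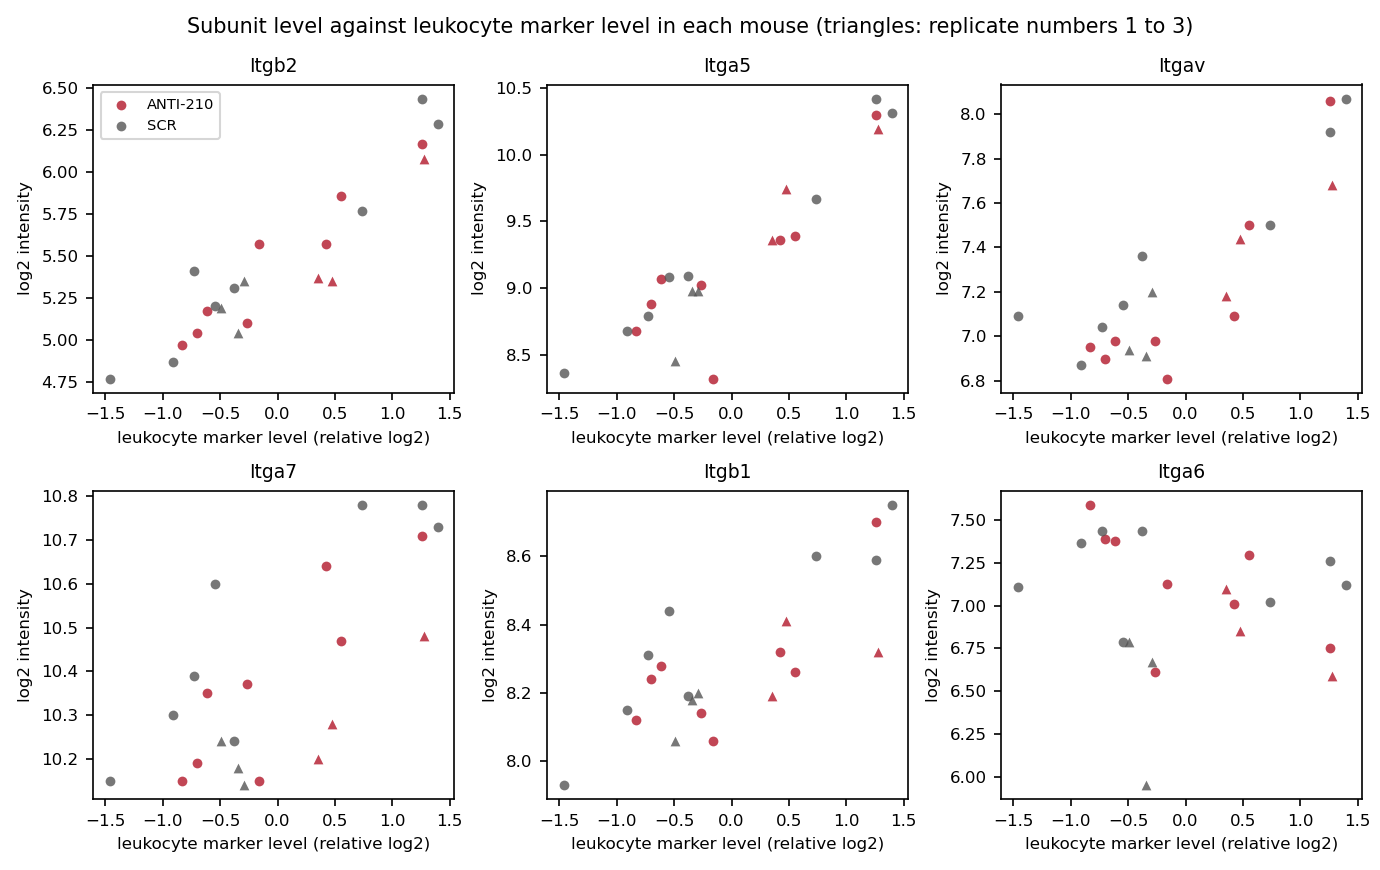
Log2 intensity of 6 integrin genes (y axis) against the mean relative log2 level of 17 leukocyte markers (x axis) in each mouse, ANTI-210 red and SCR grey. Triangles are replicate numbers 1 to 3. Points run upward in both groups for Itgb2, Itga5 and Itgav. For Itga6, r is -0.70 within ANTI-210 mice and 0.05 within SCR mice, a difference that was not tested.

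Over mice, 19 of the 45 pairs of members passed after adjustment. The strongest was Itga5 with Itgav (r = 0.92, rho = 0.88, permutation p = 1e-05 and 2e-05, 0.88 without the 2 farthest mice, and 0.93 in each replicate set). Among partners that form 1 receptor, Itgam and Itgb2 gave 0.88 (rho = 0.81, p = 1e-05 and 3e-05), Itga7 and Itgb1 gave 0.87 (rho = 0.82, p = 1e-05 and 2e-05), and Itga5 and Itgb1 gave 0.86 (rho = 0.85, p = 1e-05 each). Itgav gave 0.68 with Itgb5 (rho = 0.52, p = 0.00055 and 0.015, 0.49 without the 2 farthest mice) and -0.44 with Itgb3 (rho = -0.38, p = 0.0432 and 0.0815, adjusted p = 0.0884 for r, -0.10 without them). Itgal with Itgb2 at 0.32 (rho = 0.37, p = 0.152 and 0.0881) and Itga6 with Itgb1 at -0.04 (rho = -0.12, p = 0.85 and 0.596) did not pass. The r values of partners of 1 receptor thus varied, but the differences between them were not tested. The Itgal and Itgb3 probes were near the floor, where r can be lowered by noise. Pairs across classes, such as Itgb2 with Itgav at 0.87 (rho = 0.75, p = 1e-05 and 0.0001), also passed. The share of pairs of other genes that would pass was not counted. Many genes followed the leukocyte markers, with a median absolute r of 0.743 over the 8828 genes above the floor. The passing pairs are therefore not shown to be particular to integrins or to partners of 1 receptor.

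The gene whose level was most like each member over the 22 arrays was sought among 8822 genes above the floor, as a description. For Itga5 it was Ilk, the integrin-linked kinase that binds beta subunit tails, with r = 0.98. For Itgam it was Cfp, the complement factor properdin (0.95), for Itgb2 Ptpn18, a tyrosine phosphatase (0.95), and for Itgav Scrib, a cell polarity protein (0.96). Itgb1 was closest to Impdh1, an enzyme of guanine nucleotide synthesis (0.95), and Itga7 to Exoc3l (0.94). For Itga6 it was Rbbp6 (0.85), for Itgb5 Exosc8, a subunit of the RNA exosome (0.85), for Itgal Tpmt (0.70) and for Itgb3 Nit1 (0.61). Thus Itgal and Itgb3 had no close match.

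The rest of the integrin system was also without calls. Of 15 measured other subunits 0 passed the unadjusted threshold, with a median difference of -0.0009. The smallest p-values were those of Itgb8 (0.16, limma unadjusted p = 0.0918), Itga1 (0.14, p = 0.158), Itga11 (0.29, p = 0.277) and Itgb4 (0.12, p = 0.291). Of 22 measured ligands 0 passed, with a median of 0.16, led by F11r, a junctional ligand of LFA-1 (0.17, p = 0.0502), Icam2 (0.15, p = 0.0711), Nid1 (0.24, p = 0.102) and Fga (0.26, p = 0.145). Of 30 measured adaptors and signalling genes 0 passed, with a median of 0.11, led by the tetraspanin Cd9 (0.35, p = 0.0644), Cav1 (0.15, p = 0.0649), Tln2 (-0.27, p = 0.137) and Tln1 (0.18, p = 0.162). The median was positive for ligands and adaptors, whereas the median over all genes was -0.0036, and their mean differences were 0.62 and 0.39 in replicates 1 to 3 and -0.02 and -0.0021 in replicates 4 to 11. Of the named genes, Itga11 had 1.15 in replicates 1 to 3 and -0.03 in replicates 4 to 11, and Cd9 had 0.997 and 0.11.

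These genes were also compared with leukocyte markers over mice, in a family of 67 relations chosen after the members' values were seen, of which 44 passed. Among other subunits 4 passed with positive and 2 with negative r and 9 did not pass, among ligands 12, 2 and 8, and among adaptors 18, 6 and 6. The median r was 0.21, 0.63 and 0.84. The share of all genes that would pass was not counted, and the median absolute r over genes above the floor was 0.743. These counts are therefore not shown to be particular to the integrin system. Itga11, the collagen receptor subunit of fibroblasts, gave r = 0.93 (rho = 0.82, permutation p = 1e-05 and 2e-05, 0.90 without the 2 farthest mice, 0.95 in replicates 4 to 11). The 2 other subunits with negative r were Itgb6, at -0.92 (rho = -0.79, permutation p = 1e-05 and 4e-05), and Itgae, at -0.80 (rho = -0.79, p = 4e-05 and 6e-05). Among adaptors, the 2 talins ran in opposite directions, with r = 0.78 for Tln1 (rho = 0.74, p = 3e-05 and 0.00016, 0.82 in replicates 4 to 11) and -0.82 for Tln2, the form prominent in muscle (rho = -0.78, p = 1e-05 and 3e-05, -0.81 in replicates 4 to 11). Without the 2 farthest mice they were 0.73 and -0.81. The Tln1 probe was near the floor, with a mean of 5.32.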

How the data were processed

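RNA of the ischemic gastrocnemius of 22 mice was hybridised to Illumina MouseWG-6 v2 BeadChips. The deposited values are log2 intensities, which the authors made from GenomeStudio bead summaries by quantile normalization and by filtering for expression and probe quality with beadarray. The versions and the thresholds of this probe filter are not stated in the sources, and the log base was taken as 2 from the range of 4.35 to 15.4. The depth of an array is not a count, and precision is limited by the 11 mice per group. The labels call each sample a separate replicate, and no 2 arrays held identical values.

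Probes were named from the platform annotation (32093 with 1 symbol, 16 with several, 6454 with none), and 2 list symbols were updated. ANTI-210 was compared with SCR on all 38563 probes with limma 3.58.1 in R 4.3.3 (lmFit and eBayes, no covariate, two-sided) with the unadjusted threshold of 0.05 that the methods name and Benjamini-Hochberg adjustment beside it. Intervals are 95%. Differences within replicate numbers 1 to 3 and 4 to 11 were tested by exact permutation, and relations over mice with 100000 permutations (numpy 2.4.6). Marker levels are means of log2 values relative to each gene's mean. The fit was tested on simulated data. The members, lists and tests were chosen with earlier results of these data known. Named were all members with every probe, the 4 genes of each further list with the smallest p, and the closest gene of each member. Endothelial and other marker genes beside a result are examples. Alternatives were other normalizations, weights, filters, covariates and mice left out. The series text calls the oligonucleotides GAPmers, the methods call them LNA inhibitors. miR-210 itself was not analysed here.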

Additional observations from a re-analysis of the deposited data

How the results depend on the processing

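The count of integrin genes past the unadjusted threshold was 0 and stayed at 0 under every alternative except the first principal component as a covariate, where it was 1 (Itgav at -0.13, limma unadjusted p = 0.0290). The count of probes was 1. Array weights left 0 of them, the principal component gave 2, and the count was 0 to 1 with single mice left out. Directions turned for several members. Cyclic loess gave 0.0022 for Itgb5, array weights gave 0.043 for Itgam, 0.021 for Itga7, 0.016 for Itgb1, 0.051 for Itgav and 0.0097 for Itgb5, and the first principal component gave -0.048 for Itgb2 and -0.010 for Itga5. With single mice left out, the difference ran from -0.094 to 0.0074 for Itgal, -0.053 to 0.051 for Itgam, -0.014 to 0.16 for Itgb2, -0.075 to 0.011 for Itgb1, -0.037 to 0.11 for Itga6, -0.13 to 0.037 for Itgav, -0.041 to 0.041 for Itgb5 and -0.051 to 0.048 for the mean of the leukocyte subunits. Without a change of sign, Itga5 ran from 0.036 to 0.26, the muscle mean from -0.079 to -0.0030 and the vascular mean from 0.0031 to 0.087. The interaction of treatment with replicate set passed for 0 members under each alternative, but with the first principal component it fell to 0.12 for Itga5 and 0.015 for Itgav, against 1.13 and 0.63. The cause was not tested. The correlation of Itga6 with endothelial markers was 0.60 with the mean of its probes, against 0.45 with the brightest one.

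Mice with the same replicate number did not regularly deviate together (correlations of -0.66 to 0.64, 4 of 11 over 0.1, 1 best with its own number). Correlations over whole arrays also carry the first principal component (63.6% of the variance), so they cannot exclude a pairing by number. The main fit treated the mice as unpaired. With the replicate block, 0 genes and 1 probe passed, the dimmer Itga7 probe at -0.22 (unadjusted p = 0.0352). Signal over background limits Itgal, Itgam, Itgb2 and Itgb3, whose probes lay near the floor. The same holds for Itgb8, Fga and Tln1 among the further genes named.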
